A study of Mus musculus with 10 samples.

Results

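This account describes 10 genes that mark adipose progenitor cells and preadipocytes, the precursors of fat cells, in interscapular brown adipose tissue (iBAT). The genes were taken by name from a list, and all 10 are among the 27267 genes of the deposited table. They are the surface markers *Pdgfra*, *Ly6a*, *Cd34*, *Itgb1* and *Cd24a*, the interstitial progenitor markers *Dpp4* and *Pi16*, and the commitment regulators *Dlk1*, *Zfp423* and *Wnt10b*. RNA of whole iBAT was sequenced from C57BL/6 mice labelled as male and 4 weeks old, in 10 libraries. There were 5 wild-type libraries, with no allele or agent named, and 5 libraries labelled *Mgp*-KO, from mice with a global knockout of *Mgp*. Both groups were kept on chow under the standard light cycle, and the methods describe them as pairs of male mice. A global knockout is not limited to adipose cells, so a difference in this tissue need not arise in them. *Mgp* encodes matrix Gla protein, a secreted inhibitor of bone morphogenetic proteins (BMPs), and the study asked how its loss affects the differentiation of brown adipose cells. The question for these genes was whether markers of immature cells were higher in the libraries labelled *Mgp*-KO, as a delay in maturation would predict.

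Adipose progenitors lie in the connective tissue and around the vessels of a fat depot. They carry the PDGF receptor alpha on their surface, pass through a committed preadipocyte stage, and then switch on the genes of fat storage and, in brown fat, of heat production. Markers such as *Dlk1* fall during that switch. Several of these genes are not private to progenitors, since *Cd34* and *Ly6a* are also made by endothelial cells and *Cd24a* by immature blood cells. In a bulk tissue sample, fewer cells of a type and less RNA per cell cannot be told apart.

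Some libraries went against their labels. The libraries labelled *Mgp*-KO 1 to 3 held 0, 1 and 1 reads of *Mgp*, whereas those labelled *Mgp*-KO 4 and 5 held 309 and 282 reads, or 500 and 331 normalized counts. The wild-type libraries held between 466 and 1146 normalized counts of *Mgp*. *Xist*, which is transcribed from the inactive X chromosome of female cells, reached 5094 normalized counts in wild type 2, against 1.47 to 44.0 in the other wild-type libraries. All labels were kept as given, and differences of the markers are also given without these libraries. Replicates 4 and 5 of both groups also stood apart from replicates 1 to 3, with 9253793 to 13281873 reads counted on genes against 19616366 to 22252260, and with 6.50% to 16.7% of reads on mitochondrial ribosomal RNA against 0.771% to 1.72%. Each comparison is therefore given for all libraries and within each of these sets. The tissue label was compared with 6 markers of brown adipocytes, which summed to 135849 to 390478 normalized counts. The largest part of that sum was *Fabp4*, a gene common to all adipocytes, at 87326 to 242211. *Ucp1*, the uncoupling protein of brown fat, was read in every library, at 2201 to 116019.

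The promoters of *Zfp423* and *Dlk1* are shown because these genes had the lowest p-value between the groups and the largest fall between the sets of replicates. The RefSeq table used here matched 8 of the 10 genes with a promoter sequence, each with 250 bases before and 50 bases after a transcription start (assembly GRCm38.p6). For *Zfp423* it gives 2, and the one shown, at the start of the GENCODE gene, lies at chr8:87959546-87959845 on the minus strand. That of *Dlk1* lies at chr12:109452573-109452872 on the plus strand. They are written 5′ to 3′ on the strand of the gene, with GC boxes in capitals.
Zfp423: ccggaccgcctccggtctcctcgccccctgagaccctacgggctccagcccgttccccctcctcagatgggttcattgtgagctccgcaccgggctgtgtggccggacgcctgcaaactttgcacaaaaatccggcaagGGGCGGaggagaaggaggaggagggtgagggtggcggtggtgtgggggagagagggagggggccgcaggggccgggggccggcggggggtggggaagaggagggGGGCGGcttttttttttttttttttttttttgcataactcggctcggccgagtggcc
Dlk1: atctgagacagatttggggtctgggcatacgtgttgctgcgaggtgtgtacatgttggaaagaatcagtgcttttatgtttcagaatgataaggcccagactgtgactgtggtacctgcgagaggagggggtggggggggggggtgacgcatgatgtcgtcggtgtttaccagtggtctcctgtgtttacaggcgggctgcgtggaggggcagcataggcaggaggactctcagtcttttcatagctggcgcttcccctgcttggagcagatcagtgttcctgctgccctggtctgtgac
Both strands were searched for the TATA box TATAAA, the CCAAT box CCAAT, the GC box GGGCGG and the GC-rich SMAD element GGCGCC, which SMAD1 and SMAD5 are known to bind. The *Zfp423* promoter shown held 2 GC boxes, 111 and 7 bases before the start, the other one, at chr8:87804390-87804689, held 1 GC box, 62 bases before its start, and the *Dlk1* promoter held none of these motifs. GC boxes occur in 35.7% of the 32851 promoters, TATA boxes in 13.6%, CCAAT boxes in 37.4% and the SMAD element in 11.9%. The *Zfp423* promoter shown had a GC content of 65.7% and that of *Dlk1* 55.7%, beside a median of 52.7% over all promoters. The GC-rich SMAD element was present in the promoters of *Itgb1* and *Pi16*.

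Per kilobase of exon, the 10 genes spanned a wide range in wild-type iBAT. *Itgb1*, the beta 1 integrin that links cells to the matrix, was highest at 965 ± 70.0 normalized counts per kilobase (SD, n = 5). *Ly6a*, which encodes the stem cell antigen Sca-1, followed at 634 ± 443, and the ranges of both overlapped. *Cd34*, a sialomucin of progenitor and endothelial cells, stood at 92.9 ± 13.2, below *Ly6a* and above *Zfp423* in all 5 libraries. *Zfp423* (42.2 ± 5.87), *Dlk1* (38.1 ± 25.5), *Pdgfra* (32.0 ± 8.57), *Cd24a* (28.2 ± 4.98) and *Pi16* (22.6 ± 9.74) formed a group in which each overlapped the next. *Dpp4* was lower in every wild-type library, at 3.83 ± 2.63 per kilobase, and *Wnt10b* was lowest at 0.388 ± 0.443. This order pools both sets of replicates, and the place of *Dlk1* differed between them. *Dlk1* ran from 11.0 to 68.0 per kilobase, with wild type 4 and 5 lowest, and *Ly6a* from 326 to 1342, with wild type 4 and 5 highest. On the plain scale of normalized counts per gene, 9 of the 10 genes had a mean of at least 10 over the libraries and passed the filter for the test, and *Wnt10b* did not.

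No progenitor marker was called between the groups. Of the 9 genes tested, 0 passed in limma with Benjamini-Hochberg adjustment over 13714 genes, beside 0.0656% of all tested genes. At an unadjusted p under 0.05 there were 2 of 9, beside 10.4% of all genes. In DESeq2, where 2.26% of genes passed, and in limma with a term for the sets, where 2.36% passed, the count of markers was also 0, as it was in edgeR. The median difference of the 9 genes was -0.14 on the log2(normalized count + 1) scale, beside 0.03 over all tested genes, with 3 genes above 0 and 6 below. The median was -0.20 within replicates 1 to 3, also with 3 above and 6 below. Without the libraries labelled *Mgp*-KO 4 and 5 it was 0.0043, and without these and wild type 2 it was 0.023, each with 5 above and 4 below. These last fits keep wild type 4 and 5, so genotype and set are not balanced in them. In 0 of the 9 genes did the groups not overlap, beside 3.5% of all genes. The interval of each difference over all libraries comes from a fit with no term for the sets, so a shift between the sets widens it. For *Ly6a* and *Dlk1* it ran beyond 1 on the log2 scale in both directions. Within replicates 1 to 3 the interval, not adjusted for the number of genes, was -0.86 to -0.0044 for *Ly6a* and -0.95 to 0.55 for *Dlk1*.

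**Figure D1:**
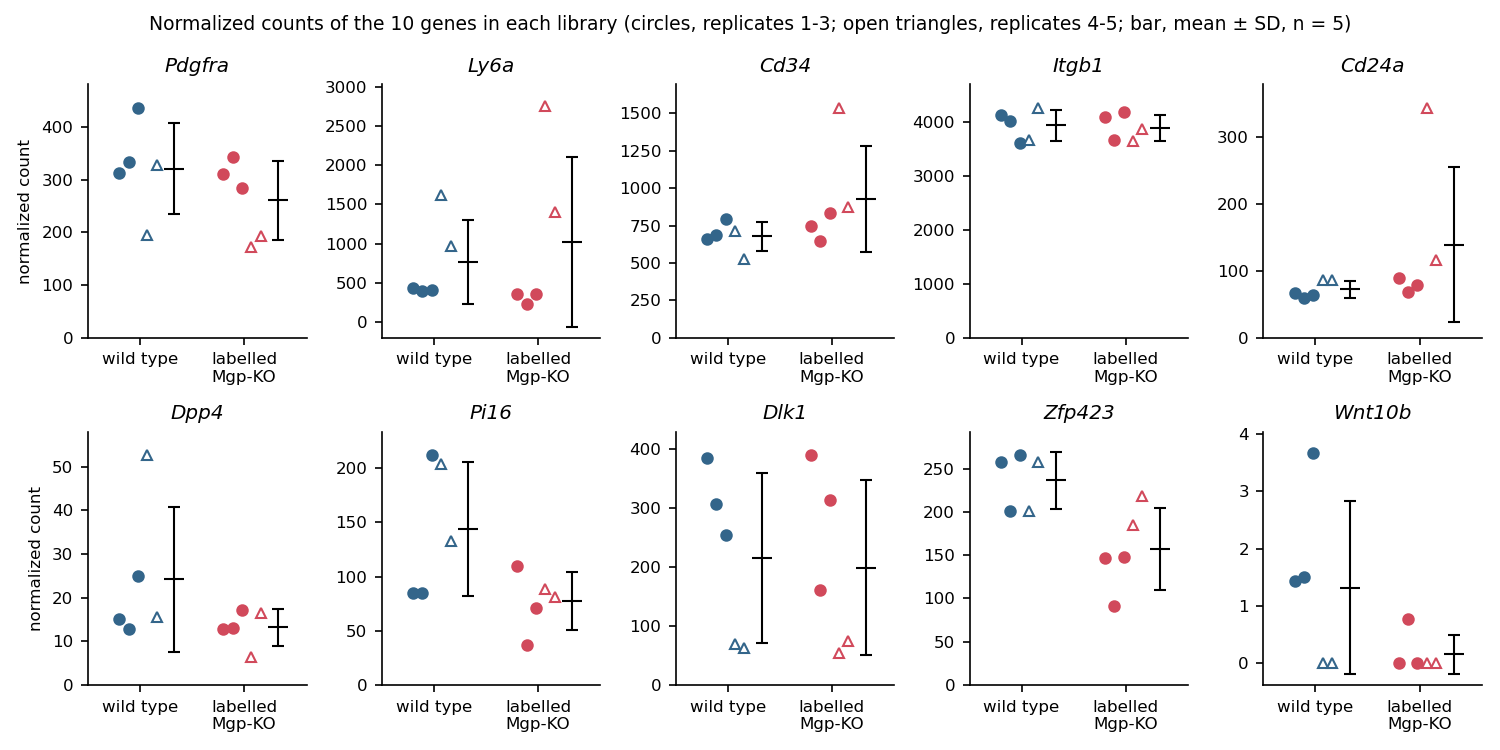
Normalized counts (vertical axes, each from 0 or below to show the error bar) of the 10 genes in the 5 wild-type libraries (blue) and the 5 labelled *Mgp*-KO (red). Circles are replicates 1 to 3, open triangles replicates 4 and 5, and bars the mean ± SD. The groups overlap for every gene, and the triangles stand apart from the circles for *Ly6a* and *Dlk1*.

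Among the surface markers, *Pdgfra*, the receptor that defines most adipose progenitors (chr5:75152292-75198215, plus strand; gene coordinates here and below are from GENCODE M21 on GRCm38), had 313, 333, 437, 195 and 327 normalized counts in wild type 1 to 5. The 5 libraries labelled *Mgp*-KO had 311, 343, 284, 172 and 193. The lowest values came from replicates 4 and 5, and the difference of -0.30 had a 95% interval of -0.87 to 0.27 (limma, adjusted p = 0.738). The difference was -0.19 within replicates 1 to 3, and without only the libraries labelled *Mgp*-KO 4 and 5, which leaves the sets unbalanced, it was 0.0043.

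*Ly6a* (chr15:74994877-74998031, minus strand) had 433, 392, 412, 1617 and 966 normalized counts in wild type and 350, 231, 352, 2757 and 1402 under the label *Mgp*-KO. Replicates 4 and 5 were above replicates 1 to 3 in both groups, so the spread within each group was wide. The difference was 0.0030, with an interval of -1.46 to 1.46 (limma, adjusted p = 0.999).

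*Cd34* (chr1:194938819-194961279, plus strand) had 662, 687, 793, 715 and 530 normalized counts in wild type and 748, 650, 833, 1539 and 873 under the label *Mgp*-KO. The library labelled *Mgp*-KO 4 was highest, and the other 9 lay between 530 and 873. The difference of 0.40 (SE 0.23) had an interval of -0.11 to 0.90 and an adjusted p of 0.594 in limma, and it was 0.20 without that library.

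*Cd24a* (chr10:43578284-43584265, plus strand), a small glycoprotein of early adipocyte progenitors and of immature blood cells, had 66.5, 59.9, 64.0, 86.5 and 86.5 normalized counts in wild type. The libraries labelled *Mgp*-KO held 88.9, 68.8, 78.8, 345 and 116. The same library, labelled *Mgp*-KO 4, was highest. The difference of 0.66 (SE 0.39) had an adjusted p of 0.596 in limma, and it was 0.27 without that library.

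*Itgb1* (chr8:128685654-128733200, plus strand) varied least, between 3611 and 4264 normalized counts over all libraries, with means of 3938 ± 286 in wild type and 3888 ± 244 under the label *Mgp*-KO (SD, n = 5 each). The difference of -0.02 had an interval of -0.35 to 0.31 (limma, adjusted p = 0.978).

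The library labelled *Mgp*-KO 4 also stood apart in markers of other cell types. The 10 endothelial markers summed to 61293 normalized counts in it, against 19544 to 32812 in the other libraries. The 7 erythroid markers summed to 101722, against 3012 to 26441 elsewhere. Across the groups, the endothelial sum ranged from 19544 to 32812 in wild type and from 22647 to 61293 in the libraries labelled *Mgp*-KO, and none of the 10 endothelial markers passed the test in limma in either direction, nor did any of the 7 erythroid markers. All 10 endothelial markers lay above 0 over all libraries (median 0.46, beside 0.03 over all genes), as did 5 of the 7 erythroid markers. Within replicates 1 to 3 it was 8 of the 10 endothelial markers (median 0.24), and within replicates 4 and 5 all 10 (median 0.90). No endothelial or erythroid marker was at 0 in all libraries. After subtraction of the mean of each set of replicates, the log2 endothelial sum had a Pearson r over the 10 libraries of 0.91 with *Cd34*, 0.74 with *Ly6a*, 0.89 with *Cd24a* and -0.84 with *Pdgfra*, and these libraries share their size factors and the 1 extreme sample. Skeletal muscle markers stood apart in other libraries. The 8 of them summed to 29533 and 29889 normalized counts in the libraries labelled *Mgp*-KO 2 and 5, against 36.1 to 5349 in the other 8. The library labelled *Mgp*-KO 2 was also the lowest of all for *Zfp423*, *Ly6a* and *Pi16*, and without it their differences within replicates 1 to 3 were -0.70, -0.23 and -0.38. Of 12 lists of cell type markers, the summed levels overlapped between the groups in 11 over all libraries. The exception was the list of 6 neutrophil markers, at 37.2 to 51.3 normalized counts in wild type and 80.9 to 494 under the label *Mgp*-KO, with 2 of the 6 under 3 reads in every library. The sums of 5 of the 12 lists did not overlap within replicates 1 to 3, those of neutrophils among them, beside 30.9% of single genes. Endothelial markers were at 19544 to 22530 in wild type and 22647 to 26808 under the label *Mgp*-KO, and mesothelial markers at 73.0 to 112 and 135 to 486. In every library the mesothelial sum was nearly all *Lrrn4*, the 1 gene of that list tested. *Krt19* went the other way within replicates 1 to 3, at 3.58 to 4.49 in wild type and 0 to 0.765 under the label *Mgp*-KO. Schwann cell markers were at 2059 to 3047 in wild type and 1217 to 1415 under the label *Mgp*-KO, and brown adipocyte markers at 199817 to 213899 and 135849 to 169044. Within replicates 4 and 5 the sums of 8 of the 12 lists did not overlap, beside 41.7% of single genes. They were higher under the label *Mgp*-KO for 7 lists (myeloid, lymphoid, erythroid, neutrophil, mesothelial and Schwann cell markers and the 10 progenitor markers). The 1 list with lower sums was that of brown adipocytes. Lymphoid sums nearly met, at 77.7 and 79.6 normalized counts in wild type beside 79.7 and 194 under the label *Mgp*-KO. Of the 6 Schwann cell markers, 4 lay above 0 and 2 below within replicates 4 and 5 (median 0.28). The 10 progenitor markers summed there to 6641 to 6810 normalized counts in wild type and 6838 to 8792 under the label *Mgp*-KO, and within replicates 1 to 3 to 6079 to 6342 and 5258 to 6277, which overlapped. Within replicates 4 and 5 only 3 of the 9 tested progenitor markers lay above 0, and 6 below (median -0.08). The highest sum was in the library labelled *Mgp*-KO 4, with 2757 normalized counts of *Ly6a* and 1539 of *Cd34*. The part of these other cell types in the levels of the progenitor markers was not tested.

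**Figure D2:**
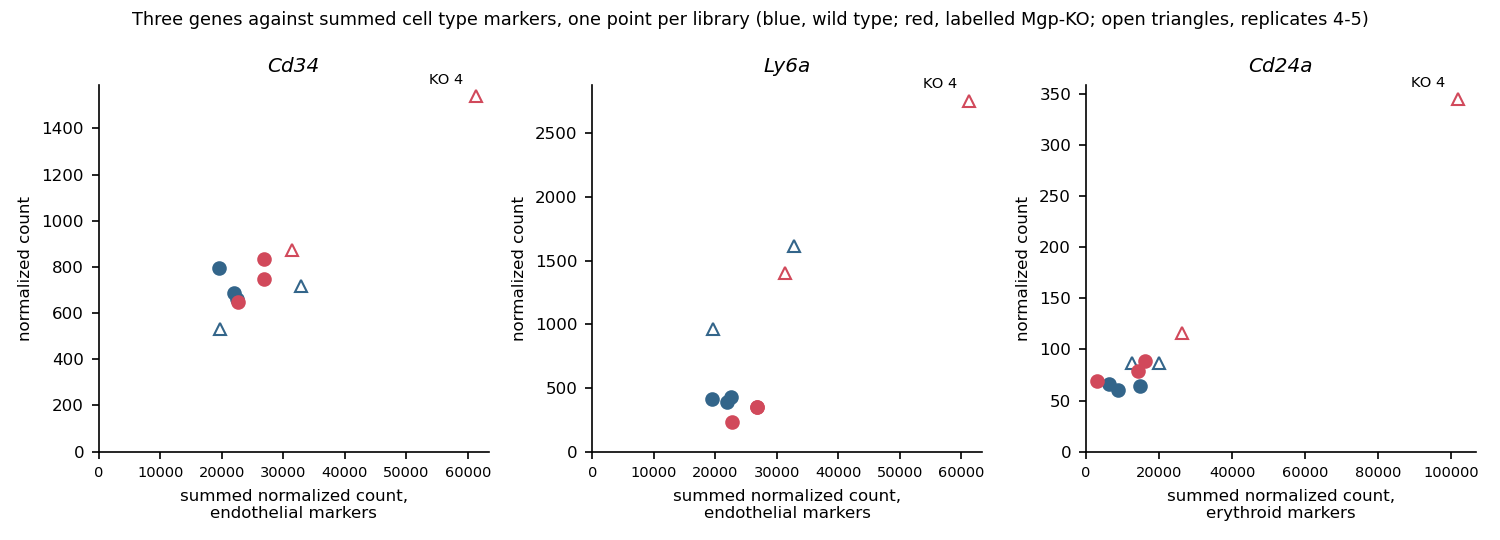
Normalized counts of *Cd34*, *Ly6a* and *Cd24a* (vertical axes) against the summed normalized counts of 10 endothelial or 7 erythroid markers (horizontal axes), with 1 point per library, wild type in blue, labelled *Mgp*-KO in red, and replicates 4 and 5 as open triangles. The library labelled *Mgp*-KO 4 lies at the upper right in all 3 plots, with 1539, 2757 and 345 normalized counts of *Cd34*, *Ly6a* and *Cd24a*.

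The markers of interstitial progenitors had lower means in the libraries labelled *Mgp*-KO, without passing the adjusted threshold. *Pi16* (chr17:29317680-29330593, plus strand), which marks fibroblasts found in many tissues, had 85.1, 84.6, 212, 204 and 133 normalized counts in wild type and 110, 36.7, 71.4, 89.0 and 80.9 under the label *Mgp*-KO. The wild-type libraries 3, 4 and 5 lay above all others, and wild type 1 and 2 within the range of the other group. The difference of -0.85 (SE 0.36) had an interval of -1.63 to -0.08 (limma, adjusted p = 0.424).

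*Dpp4* (chr2:62330073-62412231, minus strand), a cell surface peptidase that marks the least committed cells, had 15.0, 12.7, 25, 52.8 and 15.6 normalized counts in wild type and 12.8, 13, 17.2, 6.48 and 16.4 under the label *Mgp*-KO. It rested on 4 to 36 reads per library, and the difference of -0.69 (SE 0.45) had an interval of -1.67 to 0.28 (limma, adjusted p = 0.634). Without wild type 4 it was -0.37 (limma, adjusted p = 0.764). The libraries overlapped apart from wild type 3 and 4, which were highest, and the library labelled *Mgp*-KO 4, which was lowest.

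Among the regulators, *Zfp423* (chr8:87661810-87959595, minus strand), a zinc finger factor that commits mesenchymal cells to the fat lineage and takes part in BMP signalling, had the lowest p of the 9 genes. It had 258, 201, 266, 201 and 258 normalized counts in wild type and 147, 91.0, 148, 185 and 218 under the label *Mgp*-KO. The first 4 of the latter lay below every wild-type library, and the library labelled *Mgp*-KO 5 lay within the wild-type range. The difference of -0.63 (SE 0.24) had an interval of -1.14 to -0.11 (limma, adjusted p = 0.357). It had an adjusted p of 0.0706 in limma without the libraries labelled *Mgp*-KO 4 and 5, and of 0.111 without these and wild type 2.

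*Dlk1* (chr12:109452823-109463336, plus strand), a membrane protein that holds preadipocytes undifferentiated, had 385, 306, 254, 70.4 and 62.3 normalized counts in wild type and 390, 161, 314, 55.0 and 75.0 under the label *Mgp*-KO. Replicates 4 and 5 were low in both groups. The difference of -0.14 had an interval of -1.57 to 1.30 (limma, adjusted p = 0.965).

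*Wnt10b* (chr15:98770712-98778150, minus strand), a Wnt ligand that restrains adipogenesis, was at the limit of detection. The wild-type libraries held 2, 2, 5, 0 and 0 reads of it, and those labelled *Mgp*-KO held 0, 1, 0, 0 and 0. A count of 0 allows up to 3 reads, and with the size factors of the libraries at 0 that limit is 2.26 to 5.19 normalized counts (counting error only). It was fitted only with no filter on low values, where its difference was -0.80 over all libraries (limma, adjusted p = 0.744) and -1.34 within replicates 1 to 3 (limma, adjusted p = 0.173). In that last fit 3 of 10 markers had an unadjusted p under 0.05, beside 15.4% of all genes.

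No marker was called without the libraries that went against their labels. Without the libraries labelled *Mgp*-KO 4 and 5 the differences were 0.14 for *Cd34*, 0.13 for *Cd24a*, -0.53 for *Dpp4* and -0.996 for *Pi16*, and without these and wild type 2 they were 0.15, 0.062, -0.70 and -1.16. In the balanced comparison within replicates 1 to 3 they were 0.05, 0.30, -0.23 and -0.79. The differences of *Cd34*, *Cd24a* and *Dpp4* over all libraries were thus more than 1.5 times those within replicates 1 to 3.

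Within replicates 1 to 3, the set in which *Mgp* reads followed the labels, *Zfp423* came closest to the threshold. Its 3 libraries labelled *Mgp*-KO lay below the 3 wild-type libraries, at a mean of 129 ± 32.5 against 241 ± 35.6 (SD, n = 3 each). The difference of -0.93 (SE 0.23) had an interval of -1.45 to -0.40 and an adjusted p of 0.0679 in limma over 13439 genes. It passed in DESeq2 (-0.92, adjusted p = 0.00633), where 8.83% of genes passed, and in limma without the library labelled *Mgp*-KO 2 (-0.70, adjusted p = 0.0446), the adjusted p ranging from 0.0446 to 0.209 in limma with 1 library left out. It did not pass in edgeR (adjusted p = 0.0714) or in a limma fit of 4 genotype-by-set means over all libraries (adjusted p = 0.121). In limma 0 of the 9 genes passed, beside 3.77% of all genes, and 2 had an unadjusted p under 0.05, beside 22.4%. The other one was *Ly6a*, at -0.43 (limma, adjusted p = 0.219). The groups did not overlap for *Zfp423*, *Ly6a* and *Cd24a*, so for 3 of 9 genes, beside 30.9% of all genes, a share near the background.

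Within replicates 4 and 5, 0 of the 9 genes passed in limma, and no gene of the whole table did, although 6.29% of all genes had an unadjusted p under 0.05. That holds also for 1 of the 9, *Pi16*, at -0.95 (limma, adjusted p = 0.680). *Pi16* had 204 and 133 normalized counts in wild type, above the 89.0 and 80.9 under the label *Mgp*-KO. The groups did not overlap for *Pdgfra*, *Cd34*, *Cd24a* and *Pi16*, or 4 of 9 genes, beside 41.7% of all genes. In this set both libraries labelled *Mgp*-KO held *Mgp* reads.

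The difference between the groups was then compared between the sets with an interaction term. No marker passed in limma (0 of 9), and 2 had an unadjusted p under 0.05, beside 10.3% of all genes. These were *Ly6a*, whose mean under the label *Mgp*-KO was below wild type in the first set and above it in the other, at 1.08 (SE 0.46, adjusted p = 0.470 in limma), and *Cd34*, at 0.86 (SE 0.36, adjusted p = 0.470 in limma). Without the library labelled *Mgp*-KO 5, when the library labelled *Mgp*-KO 4 alone stands for its genotype in that set and is assumed to vary like the rest, *Ly6a*, *Cd34* and *Cd24a* passed in limma, at adjusted p-values of 0.0412, 0.0295 and 0.0181, beside 1612 genes in all. Without the library labelled *Mgp*-KO 4 the interactions of these 3 genes were 0.60, 0.45 and 0.12, against 1.08, 0.86 and 0.90 with all libraries, and none passed (limma, adjusted p from 0.739 to 0.940). DESeq2 called 0 of the 9 with all libraries. The 1 gene of the table that passed in limma was *Mgp* itself (adjusted p = 2.51e-04).

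**Figure D3:**
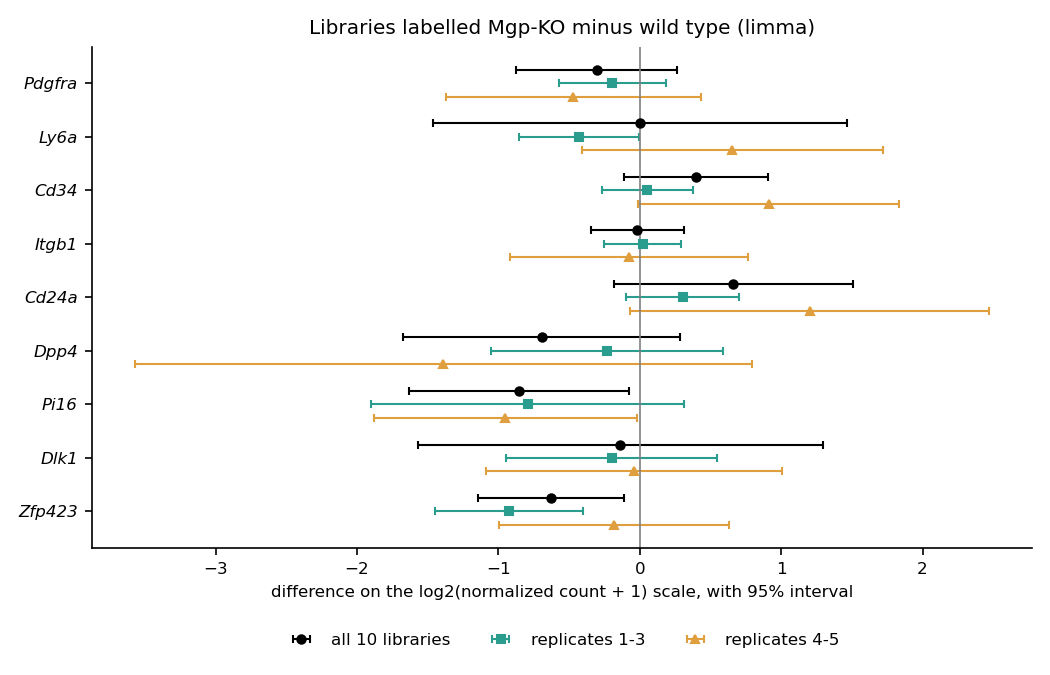
Difference between the libraries labelled *Mgp*-KO and wild type on the log2(normalized count + 1) scale (horizontal axis) for the 9 genes tested, with 95% intervals from limma, for all 10 libraries (black circles), replicates 1 to 3 (green squares) and replicates 4 and 5 (orange triangles). *Zfp423* lies below 0 in all 3, at -0.63, -0.93 and -0.18, and *Ly6a* changes side between the sets, at -0.43 and 0.65.

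The largest differences among these genes, those of *Ly6a* and *Dlk1*, lay between the sets of replicates and not between the groups. The reverse held for *Pi16*, *Dpp4*, *Zfp423* and *Cd34*, at -0.85, -0.69, -0.63 and 0.40 between the groups and 0.43, 0.16, 0.30 and 0.22 between the sets. With genotype in the model, 4 of the 9 genes passed in limma, beside 38.2% of all tested genes, so the share of the markers was near the background. By direction, 2 of 9 were higher in replicates 4 and 5, beside 18.3% of all genes, and 2 of 9 lower, beside 19.9%. *Ly6a* was 4.66-fold higher in mean normalized count, at 1685 ± 764 (SD, n = 4) against 362 ± 71.9 (n = 6), with a log2 difference of 2.14 (SE 0.27, adjusted p = 2.29e-04 in limma). *Dlk1* was 4.60-fold lower, at 65.7 ± 8.83 against 302 ± 85.9, with a log2 difference of -2.13 (SE 0.24, adjusted p = 1.31e-04 in limma). These were also the 2 of 9 genes whose sets did not overlap, beside 25.2% of all genes. *Pdgfra* fell by 0.63 (SE 0.18, adjusted p = 0.0156 in limma), and lost its call without wild type 4 (adjusted p = 0.0549). *Cd24a* rose by 0.89 (SE 0.29, adjusted p = 0.0321 in limma), and lost its call without any one of the libraries labelled *Mgp*-KO 1, 2 or 3, with adjusted p-values of 0.0567 to 0.0653 and differences of 0.81 to 0.89. Without the library labelled *Mgp*-KO 4 the difference was 0.49 (limma, adjusted p = 0.0328). The other 5 genes lay between -0.03 for *Itgb1* and 0.43 for *Pi16*. The sets also differed in depth, in mitochondrial ribosomal RNA and in the summed erythroid markers, which ran from 3012 to 16303 normalized counts in replicates 1 to 3 and from 12672 to 101722 in replicates 4 and 5. Of the 10 endothelial markers all lay higher in replicates 4 and 5 (median 0.53, beside -0.02 over all genes), and 5 passed, *Kdr*, *Flt1*, *Tek*, *Emcn* and *Erg*. Their sum ran from 19544 to 26808 in replicates 1 to 3 and from 19682 to 61293 in replicates 4 and 5. The 7 tested skeletal muscle markers also all lay higher in replicates 4 and 5 (median 2.99), and 0 passed. Summed muscle markers ran from 36.1 to 29533 in replicates 1 to 3 and from 283 to 29889 in replicates 4 and 5. The part of depth and of these cell types in these differences was not tested.

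**Figure D4:**
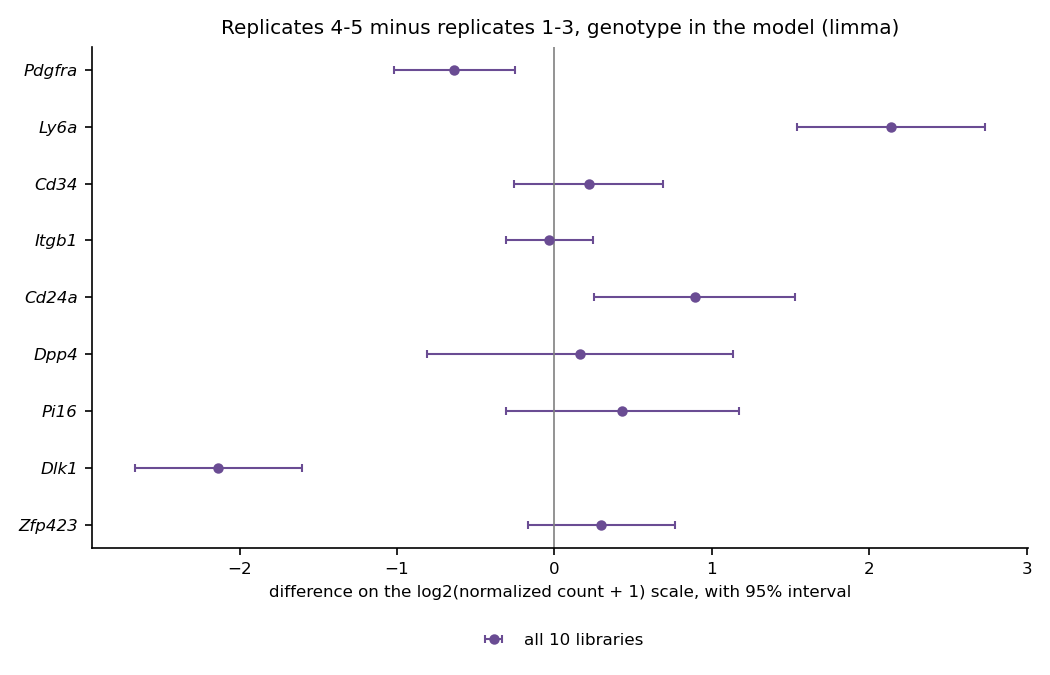
Difference between replicates 4 and 5 and replicates 1 to 3 on the log2(normalized count + 1) scale (horizontal axis) for the 9 genes tested, with 95% intervals from limma and genotype in the model. *Ly6a* lies at 2.14 and *Dlk1* at -2.13, and the intervals of 5 genes include 0.

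The genes did not move as 1 group across the libraries. After the mean of each set was subtracted, 18 of the 36 pairs of the 9 genes had a Pearson r above 0 over the 10 libraries, with a median of 0.05 and a range of -0.73 to 0.91. *Cd34* and *Cd24a* were most alike (r = 0.91), followed by *Ly6a* and *Cd34* (0.80), which all were highest in the library labelled *Mgp*-KO 4. *Pi16* was like *Zfp423* (0.67) and *Dpp4* (0.60). The most unlike pair was *Cd24a* and *Dpp4* (-0.73). Over all tested genes, the patterns most like that of *Zfp423* were those of *Tusc5* (0.98), *Gmppb* (0.96) and *Abcb9* (0.96). For *Pdgfra* they were *Zfand3* (0.95), *Nup205* (0.94) and *Cd82* (0.94), for *Ly6a* *Fam171a1*, *Specc1* and *Arhgap28* (0.97 to 0.98), and for *Cd34* *Arhgap40*, *2210016L21Rik* and *Hoxb4* (0.97 to 0.98). *Cmtm8*, *Dnajc8* and *Phactr1* were most like *Cd24a* (0.98), and *Itpr1*, *Bmp5* and *Iqsec3* most like *Itgb1* (0.92 to 0.93). *Atox1*, *Wdr24* and *Cops9* were most like *Pi16* (0.96 to 0.97), *Ptk2b*, *Ptrhd1* and *Hars* most like *Dpp4* (0.93 to 0.95), and *Fam167a*, *Fgf1* and *Trim67* most like *Dlk1* (0.89 to 0.92). These are descriptions over 10 libraries that share their depth differences.

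Other genes of the progenitor and preadipocyte stages, listed by role, gave no call over all 10 libraries in limma (0 of 7 genes of DPP4+ interstitial progenitors, 0 of 11 preadipocyte genes, 0 of 14 stromal genes, 0 of 8 regulators that restrain adipogenesis and 0 of 11 that favour it). The background over all genes was 0.0656%. Their medians on the log2 scale were 0.18, 0.24, -0.68, 0.45 and -0.03, beside 0.03 over all genes. Stromal genes lay below 0 in 13 of 14 cases over all libraries and within replicates 1 to 3 (median -0.96), whereas 8 of 14 lay above 0 within replicates 4 and 5 (median 0.03). Among those below 0 over all libraries was *Col3a1*, at 7232 ± 3283 normalized counts in the libraries labelled *Mgp*-KO against 14754 ± 7131 in wild type (SD, n = 5 each; adjusted p = 0.421 in limma).

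The study's own 4 markers of mesenchymal stem cells, which it chose itself and which are therefore not independent evidence, also gave 0 calls between the groups. All 4 lay above 0 over all libraries (median 0.36) and within replicates 1 to 3 (median 0.24), and 3 of 4 within replicates 4 and 5 (median 0.49). *Vim*, the intermediate filament vimentin, was the most abundant, at 7776 ± 1349 normalized counts in the libraries labelled *Mgp*-KO against 7233 ± 1097 in wild type (SD, n = 5 each; adjusted p = 0.902 in limma).

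Within replicates 1 to 3, where 3.77% of all genes passed in limma, 1 of 7, 2 of 11 and 1 of 14 genes of the interstitial progenitor, preadipocyte and stromal lists passed. *Ackr3*, a chemokine scavenger listed with interstitial progenitors, was the 1 of 7 that passed, and fell from 1159, 815 and 1098 normalized counts in wild type to 366, 216 and 413 under the label *Mgp*-KO (-1.66, SE 0.26, adjusted p = 0.0197 in limma). Of the 11 preadipocyte genes, *Fmo2* rose by 2.44 and *Abcg1*, a sterol exporter, rose by 1.94 (adjusted p = 0.0392 and 0.0446 in limma). The library labelled *Mgp*-KO 2 was highest for both. *Fmo2* had 704, 2382 and 601 normalized counts in the libraries labelled *Mgp*-KO 1 to 3, and *Abcg1* 487, 1443 and 465. In replicates 4 and 5 *Abcg1* had 87.9 and 107 in wild type and 82.6 and 142 under the label *Mgp*-KO. Of the 14 stromal genes, *Dpt*, which encodes the matrix protein dermatopontin, fell by 1.14 (adjusted p = 0.0409 in limma). The 3 levels in the libraries labelled *Mgp*-KO lay below those of wild type for *Dpt*, at 226 to 341 against 482 to 793 normalized counts.

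Among the regulators, changes within replicates 1 to 3 went both ways, beside the same 3.77% of all genes called. *Klf2*, a Krüppel-like factor that restrains adipogenesis, was the 1 of 8 such genes that passed and fell, from 2014, 2033 and 2068 to 661, 418 and 490 normalized counts (-1.99, SE 0.17, adjusted p = 0.00376 in limma). Of the 12 genes that favour adipogenesis, *Ebf1* rose by 1.04, while *Klf4* fell by 1.21 and *Prdm16*, which drives brown fat identity, fell by 0.94 (adjusted p = 0.0236, 0.0163 and 0.0476 in limma). In the Wnt list, *Dkk3*, a secreted Wnt modulator, rose by 1.26 and *Axin2*, a target of beta-catenin, fell by 1.17, out of 13 tested genes (adjusted p = 0.0446 and 0.00791 in limma). None of these 6 genes passed the interaction with the set (adjusted p of 0.470 to 0.914 in limma). *Klf2* and *Klf4* had 4536 and 4084 normalized counts in the library labelled *Mgp*-KO 4, above all other libraries.

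Maturity genes were read beside the progenitor markers. Of 10 genes common to all adipocytes, 0 passed in limma over all libraries and 0 within replicates 1 to 3, with medians of -0.03 and -0.03. *Fabp4*, a fatty acid carrier with the highest mean of the list over the 10 libraries, had 125257 ± 42019 normalized counts in the libraries labelled *Mgp*-KO and 144961 ± 71764 in wild type (SD, n = 5 each). Of 10 genes of brown adipocytes, 0 passed over all libraries and 3 within replicates 1 to 3, beside 0.0656% and 3.77% of all genes. *Ucp1*, the uncoupling protein of heat production, fell by 2.76 (adjusted p = 0.0402 in limma), from 38421, 41322 and 46191 to 8939, 2201 and 11904 normalized counts. *Elovl3*, a fatty acid elongase of active brown fat, fell by 3.05, and *Lhx8*, a factor of brown preadipocytes, rose by 1.51 (adjusted p = 0.0279 and 0.0203 in limma). Within the same libraries 0 of the 9 progenitor markers passed in limma.

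The receptors and partners of the markers were also compared, where 38.2% of all genes passed between the sets, 18.3% higher and 19.9% lower in replicates 4 and 5. Of 6 PDGF ligands and receptors, 0 passed between the groups, while 3 of 6 passed between the sets, where *Pdgfra* and *Pdgfrb* fell and *Pdgfa* rose. *Pdgfrb*, the receptor of mural and stromal cells, fell by 0.91 (adjusted p = 7.59e-04 in limma), from 1410 ± 92.0 in replicates 1 to 3 to 760 ± 159 in replicates 4 and 5 (SD, n = 6 and 4). Of 11 integrin alpha subunits that pair with *Itgb1*, 0 passed between the groups, and 5 of 11 passed between the sets, where *Itga8*, *Itga9* and *Itga10* rose and *Itga3* and *Itga7* fell. Of 3 tested genes of the Ly6 family, 2 passed. *Ly6c1*, an endothelial and immune surface antigen near *Ly6a*, rose with it between the sets, by 1.45 (adjusted p = 0.00149 in limma), and *Ly6e* did not pass (0.34, adjusted p = 0.292 in limma). Reads of close family members such as *Ly6a* and *Ly6c1* may be split by the counting and are uncertain to that extent. In the Wnt list, 7 of 13 genes fell between the sets, beside the 19.9% of all genes, and 0 rose, beside 18.3%. Those that fell included the Wnt receptors *Fzd1*, which fell by 2.02 (adjusted p = 3.84e-04 in limma), and *Fzd2*, which fell by 2.18 (adjusted p = 5.21e-04 in limma).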

How the data were processed

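The 10 genes and the gene lists were chosen with earlier results of these data known. Per the methods, the authors aligned single reads with STAR (mm10), took gene counts and scaled each library by its DESeq2 size factor, so the deposited values are a signal per gene, in normalized counts. The strand setting and annotation release are not given in the sources used here, so reads of overlapping genes cannot be told apart. In every library 100% of values came out as whole reads (tolerance 0.1 reads), and these reads entered the count tests.

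Groups follow the labels, with 5 libraries each. Nothing marks shared litters or days behind the replicate numbers, and p-values measure the spread between these libraries. Genes with a mean of at least 10 normalized counts in the fitted libraries were tested with limma 3.58.1 in R 4.3.3 (mean-variance trend) on log2(normalized count + 1), a scale that understates the change of low genes, with Benjamini-Hochberg adjustment and a threshold of 0.05. Alternatives were pseudocounts, filters, scaling, edgeR 4.0.16 and DESeq2 1.42.0 on recovered reads, a replicate block, a set term and left-out libraries. Wild type 2 was left out only after the data were seen. The fits were tested on simulated data.

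The text names the 10 genes, *Mgp*, *Xist*, listed genes that pass a test or are among the 3 most abundant of their list, and the 3 genes most like each of the 10. Genomic coordinates and exon lengths come from GENCODE M21 and RefSeq on GRCm38. The exons of *Pdgfra* share 6.50% of their bases with other genes, and those of *Cd34*, *Dpp4* and *Pi16* share 2.03% to 3.67%.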

Additional observations from a re-analysis of the deposited data

Results flagged for a closer look

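The library labelled *Mgp*-KO 4 was far from the other 4 libraries of its group for 2 of the 9 tested genes. For *Cd34* its gap to the nearest library took 0.749 of the range of the group, and for *Cd24a* 0.829, where 0.71 is the 95% critical value of Dixon's test for 5 libraries. These gaps are on the plain scale of normalized counts. On the log2(normalized count + 1) scale used for the tests they were 0.658 and 0.677, both below that value. With 18 groups of libraries screened, chance alone flags about 1 in 20. *Cd34* stood at 1539 normalized counts in that library against 650 to 873 in the rest of the group, and *Cd24a* at 345 against 68.8 to 116.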

How the results depend on the processing

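No setting called any of the 9 genes over all libraries, while the count of all genes called moved from 9. It was 29 with a pseudocount of 10, 1 with no filter, 15 with a mean of at least 50, 324 with the set term, 3 in edgeR, 374 in DESeq2 and 1152 in DESeq2 with the set term. It was 507 within replicates 1 to 3, 0 within replicates 4 and 5, 265 without the libraries labelled *Mgp*-KO 4 and 5, and 96 without these and wild type 2. Leaving out 1 library gave 0 to 93. The median of the 9 genes then ran from -0.38 to -0.14. It was 0.0043 without the libraries labelled *Mgp*-KO 4 and 5.

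Libraries of the same number deviated together from their group means in 4 of 5 pairs at a correlation above 0.1 (0.056 to 0.527), and 2 of 5 were most like their own number. Only group means were subtracted, so these correlations also follow the sets, and they can neither show nor exclude pairing. Wild type 1, for example, had a correlation of 0.594 with the library labelled *Mgp*-KO 3, above that with its own number. The numbers were not taken as pairs, since nothing marks shared litters or days behind them. A replicate block in limma called 270 genes over all libraries and 1 of the 9 genes within replicates 1 to 3, *Zfp423* (adjusted p = 0.0431), and edgeR with the block called 222 genes over all libraries.

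Within replicates 1 to 3, DESeq2 called 1348 genes and 1 of the 9, *Zfp423*, and a fit of 4 genotype-by-set means called 42. Leaving out 1 library gave 36 genes (without wild type 2) to 884 (without the library labelled *Mgp*-KO 2), and 0 to 1 of the 9. The interaction called 61 genes in DESeq2, and 1 to 1612 genes and 0 to 3 of the 9 with 1 library left out, the highest without the library labelled *Mgp*-KO 5. Between the sets, 3 or 4 of the 9 were called with 1 library left out.

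Some differences changed sign, all with an adjusted p above the threshold. Without the libraries labelled *Mgp*-KO 4 and 5, a fit in which wild type comes from both sets and the other group from 1 set, the differences were 0.0043 for *Pdgfra*, -1.07 for *Ly6a*, 0.015 for *Itgb1* and 0.69 for *Dlk1*. Without these and wild type 2 they were 0.029, -1.25, 0.023 and 0.90. Within replicates 1 to 3 they were -0.43 for *Ly6a* and 0.021 for *Itgb1*, and with upper quartile scaling -0.0065 for *Ly6a*. With 1 library left out they ran over all libraries from -0.52 to 0.37 for *Ly6a*, -0.048 to 0.012 for *Itgb1* and -0.49 to 0.23 for *Dlk1*. Within replicates 1 to 3 they ran from -0.030 to 0.15 for *Cd34*, -0.036 to 0.080 for *Itgb1*, -0.42 to 0.038 for *Dpp4* and -0.46 to 0.17 for *Dlk1*. Between the sets they ran from -0.037 to 0.40 for *Cd34* and -0.30 to 0.53 for *Dpp4*. For the interaction they ran from -0.65 to 0.10 for *Pdgfra*, -0.21 to 0.011 for *Itgb1*, -0.60 to 0.20 for *Pi16* and -0.21 to 0.42 for *Dlk1*. The cause of these changes was not tested. *Dpp4* and *Wnt10b* rest on few reads, and *Wnt10b* was fitted only with no filter.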
